A study of Mus musculus with 25 samples.

Results

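Translocation joins that ran leftward from positions 1 to 3024 of a reporter cassette, that is, joins whose cassette DNA began left of the fork-blocking array and ran away from it, numbered 1028 of 11867 junctions (8.66%). Members were chosen by orientation and position alone: the joined DNA lay on the minus strand, and the join lay left of position 3025, where the array window begins. Of these, 988 came from cells with Tus, 38 from cells with I-SceI and 2 from cells with EV, a control that the labels do not spell out. The junctions were mapped in mouse embryonic stem cells by LAM-HTGTS, in which a Cas9 cut serves as the bait and each read shows the DNA to which the bait end was joined. The bait was cut 30 kb from the cassette of 4 kb, which was integrated in the ROSA26 locus, and DNA was collected 48 h after transfection.

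All cells carried an allele labelled exon11 next to either a deleted (BRCA1del/exon11) or a floxed (BRCA1flox/exon11) BRCA1 allele, called BRCA1del and BRCA1flox here. All received an siRNA. The targets were BLM, a helicase that unwinds recombination intermediates, BRCA1 itself, FANCM, a translocase that remodels stalled forks, and luciferase as the control. Tus was delivered with each of the 4 siRNAs in both genotypes, in 3 samples per group, except that siBLM, siBRCA1 and siLuciferase in BRCA1flox had 2 samples each. I-SceI and EV were delivered only in BRCA1del cells with siFANCM, in 2 samples each. The labels do not say whether the genotypes are single clones or whether replicates were separate cultures. Each sequencing run of a group was counted as 1 library, giving 25 libraries with 148 to 933 junctions each. The 4 runs are called A to D. The 21 Tus libraries held 15 to 154 of the joins described here, with a median of 43, and within each Tus group the run D library was the smallest. P-values therefore reflect only how much libraries vary, and part of that may be technical.

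Tus is a bacterial protein that binds Ter elements and stops replication forks arriving from one side, and I-SceI is an endonuclease that cuts a single site next to the array. BRCA1 acts in homologous recombination, in the resection of broken ends and in the protection of stalled forks. An end that is trimmed before it is joined leaves the join at a distance from the break, and single strands exposed by trimming can pair through a few shared bases, called microhomology. A join with no shared and no added base is called blunt.

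The distance of a join from position 3025 is 1 base more than the cassette sequence missing left of that position, since the joined base is kept. For a break within the array or right of it, the distance is a lower limit of the loss from the broken end. For a break left of position 3025 it is not, and the positions of the breaks were not measured. The I-SceI site lies at the right end of the array window, so that for I-SceI the distance leaves out the whole array. Distances beyond 388 bp lie left of position 2637, where EGFP begins by the coordinates used here. In the sequence rebuilt from the reads, the first base of the array window and the EGFP start codon each lay 1 base further left, at 3024 and 2636, where 15 and 3 of the joins fell.

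The joins below show how the bait end met the EGFP sequence. They are printed in the direction of the reads, bait bases first, then the bases shared by bait and cassette in capitals, then the cassette strand running leftward. The bait as rebuilt from the reads ended in the bases of the first line. This end was set where few reads followed the bait any farther, and bait-end loss was counted from it. The cassette strand that leftward joins enter is given in the next line, from position 3024 to 2965. Its 5 bases at 2979 that recurred as microhomology are in capitals. The joins at 3016, 3020, 3024 and 3011 were among the 5 positions found in most Tus libraries, and those at 2979, 2894, 2676 and 2761 were the positions most used with 4 of the 8 most frequent microhomologies of at least 4 bp.
Bait end: cgaaactaggcaggagtaacttgct
Cassette, leftward strand: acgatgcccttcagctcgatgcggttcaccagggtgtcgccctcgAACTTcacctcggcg
Position 3024: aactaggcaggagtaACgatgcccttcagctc
Position 3020: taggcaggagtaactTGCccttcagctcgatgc
Position 3016: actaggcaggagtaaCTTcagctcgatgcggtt
Position 3011: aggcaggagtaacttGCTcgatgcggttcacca
Position 2979: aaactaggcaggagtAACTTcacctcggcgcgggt
Position 2894: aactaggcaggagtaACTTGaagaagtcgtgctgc
Position 2761: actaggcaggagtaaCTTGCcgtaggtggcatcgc
Position 2676: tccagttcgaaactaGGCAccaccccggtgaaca

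Joins with Tus were densest next to the array and thinned out to the left. The median distance of the 988 Tus joins was 136.5 bp, with quartiles of 31 and 371.5 bp, and the farthest lay 2983 bp away. Within 49 bp of the array lay 313 joins (31.7%), between 50 and 99 bp 119 joins, between 100 and 388 bp 320 joins and left of the EGFP start 236 joins (23.9%). The border itself was not a step in the data: 116 Tus joins lay in the 10 bp just left of position 3025 and 126 leftward joins in the 10 bp from it on. Tus joins occupied 468 positions, of which 297 held a single join and 43 held at least 5, with 357 joins between them. Position 3016, 9 bp from the array, was the most shared, with 24 joins in 15 libraries, and 17 of them came from BRCA1del. In 8 of these the bases CTT were shared with a bait end that had lost 3 bases, as printed above, and 15 of the 24 had microhomology of at least 2 bp. Position 3020 held 16 joins in 13 libraries, and positions 3024 and 3013 held 15 each in 11 libraries.

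**Figure D1:**
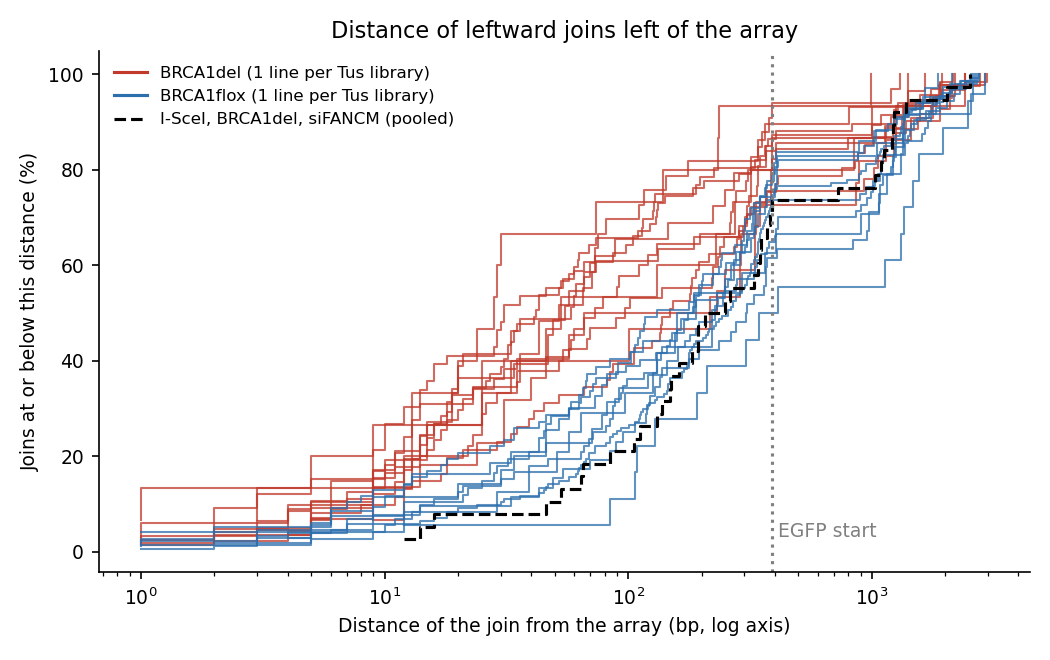
Cumulative share of leftward joins left of the array (%, vertical axis) against distance from the array (bp, log axis), with 1 line for each of the 21 Tus libraries and a dashed line for the pooled 38 I-SceI joins. The BRCA1del lines lie mostly above the BRCA1flox lines at short distances, and the dotted line marks the EGFP start at 388 bp.

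Left of EGFP the joins were sparse, with 1 long interruption. EGFP sequence to the left of the array held 752 Tus joins, or 194 per 100 bp. The 408 bp from the start of a promoter to EGFP held 32 (7.84 per 100 bp), the 1458 bp further left 182 (12.5 per 100 bp), an open reading frame of 199 codons at 171 to 770 held 19 (3.17 per 100 bp), and the 170 bp left of it 3. No leftward join of any of the 10 groups fell between 2343 and 2612, a stretch of 268 bp that was the longest free of such joins. In the same stretch 33 of the 403 rightward joins left of the array were found, at 2447 to 2607. No alignment of any junction covered the 94 bp from 2344 to 2437, and the loss of joins there, or of reads, cannot be told apart. The 207 Tus joins left of this stretch lay at least 682 bp from the array.

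The left portion of the interruption lies in a promoter, whose match ends at 2516, and the remainder lies between that match and EGFP. The cassette from 2229 to 2516 matched the mouse Pgk1 promoter of RefSeq at both of its ends (146 of 300 bases in exact matches), Pgk1 being a housekeeping gene of glycolysis whose promoter is widely used in reporters. The 250 bases before the Pgk1 start, chrX:106186850-106187099 on the plus strand of GRCm38.p6, are printed to show the RefSeq counterpart of the missing part. Capitals mark the 153 RefSeq promoter bases (60.8% G or C) that lie between the matched flanks. The cassette has 141 bp there, from 2297 to 2437, which could not be rebuilt from reads. The lengths differ, so the capitals are not the exact cassette sequence.
Pgk1 promoter: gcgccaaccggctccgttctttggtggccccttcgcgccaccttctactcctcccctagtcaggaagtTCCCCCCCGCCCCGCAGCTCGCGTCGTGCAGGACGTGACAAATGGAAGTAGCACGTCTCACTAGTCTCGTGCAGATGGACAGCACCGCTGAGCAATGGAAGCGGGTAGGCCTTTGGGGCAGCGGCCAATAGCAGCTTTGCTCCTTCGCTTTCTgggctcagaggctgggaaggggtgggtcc

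**Figure D2:**
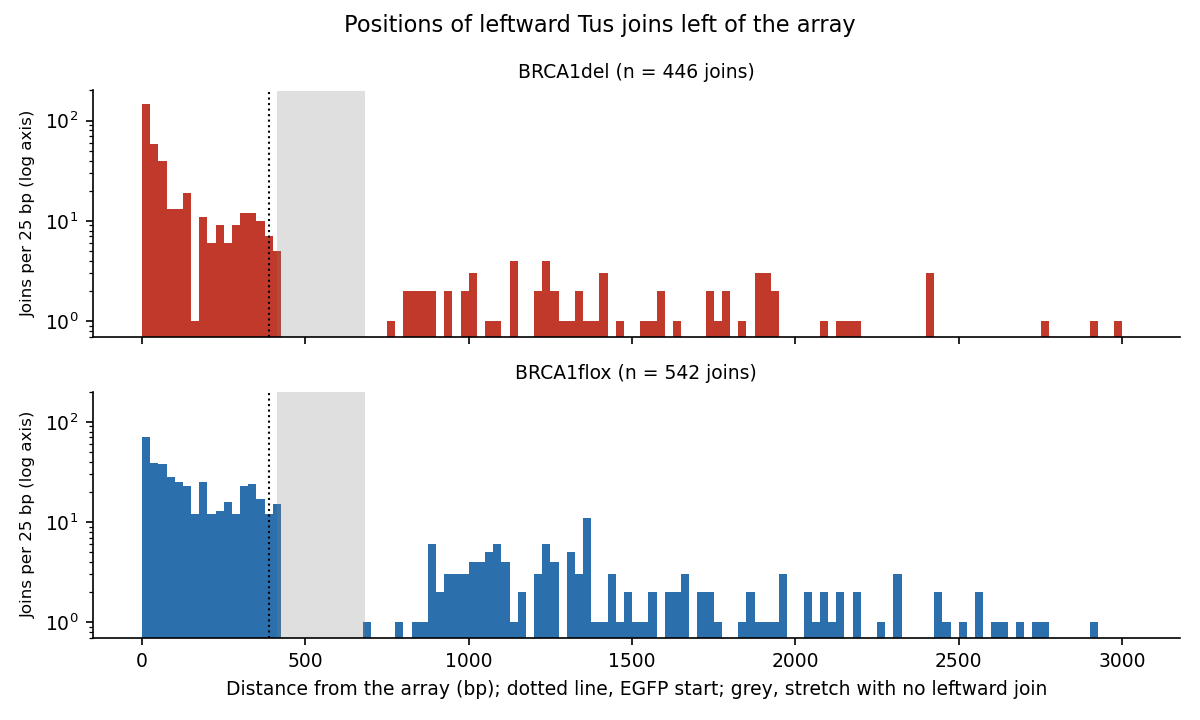
Tus joins per 25 bp (log axis) against distance from the array (bp) in BRCA1del (446 joins) and BRCA1flox (542 joins), with the EGFP start dotted and the stretch from 413 to 682 bp without a leftward join in grey. Both genotypes show the peak next to the array and the interruption.

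The distance of joins differed between the genotypes. In BRCA1del, joins lay closer to the array than in BRCA1flox with every siRNA, and fewer of them lay left of the EGFP start. With siLuciferase, the median distances of the BRCA1del libraries in runs B, C and D were 149, 73 and 53 bp, and those of the BRCA1flox libraries in runs C and D were 257 and 189 bp. With siBLM they were 31, 42 and 217 bp in BRCA1del and 221 and 228 bp in BRCA1flox, the BRCA1del value of 217 bp resting on the 15 joins of run D. With siBRCA1 they were 97, 55 and 28 bp against 131 and 172.5 bp. With siFANCM they were 58, 52 and 148.5 bp in runs A, C and D of BRCA1del and 180.5, 305.5 and 379 bp in runs B, C and D of BRCA1flox. The libraries of the genotypes thus did not overlap with any of the 4 siRNAs. Averaged over the siRNAs, the median distance was 83.6 bp in BRCA1del and 222 bp in BRCA1flox, a difference of -138 bp (adjusted p = 0.0007, exact two-sided permutation of libraries within siRNA, Benjamini-Hochberg over 7 measures). Within runs, the BRCA1del library had the shorter median in 8 of 8 pairs (mean difference -152 bp). Here and below, the 8 pairs of genotypes all came from runs C and D, so they are not 8 independent replicates. Without run C the difference was -120 bp and did not pass (adjusted p = 0.0648, exact permutation). Among joins at least 50 bp from the array it was -56.2 bp (adjusted p = 0.0951, exact permutation).

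The share of these joins left of the EGFP start was 17.2% ± 6.6 in BRCA1del (SD, n = 12 libraries) and 31.6% ± 9.2 in BRCA1flox (SD, n = 9 libraries). It was 16.1, 13.4 and 20% in the BRCA1del siBLM libraries against 35.1 and 25.7% in the BRCA1flox ones, and 14.9, 9.09 and 6.67% against 22.4 and 37.5% with siBRCA1. Neither pair of groups overlapped. With siFANCM the shares were 24.4, 10.3 and 27.3% against 26.4, 38.5 and 50%, and with siLuciferase 24.6, 20 and 20% against 26.0 and 23.3%. In these pairs the highest BRCA1del library exceeded the lowest BRCA1flox library. Averaged over siRNAs the difference was -13.6 percentage points (adjusted p = 0.0007, exact permutation), in the same direction with 4 of 4 siRNAs. Without run C it was -11.9 points and did not pass.

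Joins were then counted in 3 zones of distance, each as a share of all leftward joins up to the end of the I-SceI site that closes the array. Zones were set after these values had been seen. From 1 to 49 bp the share of leftward joins was higher in BRCA1del, and in both farther zones it was lower. With siBLM, the zone next to the array held 8.93, 11.6 and 7.41% of leftward joins in the BRCA1del libraries and 6.69 and 4.79% in the BRCA1flox libraries. With siBRCA1 the values were 6.67, 6.37 and 10% against 5.38 and 2.94%, and with siFANCM 6.25, 4.91 and 10% against 4.20, 2.93 and 0.833%. With siLuciferase they were 5.40, 5.78 and 4.58% against 3.46 and 5.61%, and only here did the genotypes overlap. Averaged over siRNAs the zone held 7.32% in BRCA1del and 4.27% in BRCA1flox (difference 3.05 points, adjusted p = 0.0008, exact permutation, Benjamini-Hochberg over 3 zones).

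From 50 bp to the EGFP start the averages were 5.74% in BRCA1del and 10.1% in BRCA1flox (difference -4.33 points, adjusted p = 0.0003, exact permutation). Left of the EGFP start they were 2.83 and 6.19% (difference -3.36 points, adjusted p = 0.0003, exact permutation). With siLuciferase, the control siRNA, the middle zone held 7.67, 6.46 and 3.27% in BRCA1del and 14.5 and 11.2% in BRCA1flox, without overlap, and the far zone 4.26, 3.06 and 1.96% against 6.30 and 5.10%. With siFANCM the genotypes overlapped in both zones. There the middle zone held 3.44, 4.21 and 7.78% against 11.7, 8.79 and 6.67%, and in run D the BRCA1del library was the higher one. The far zone held 3.13, 1.05 and 6.67% with siFANCM in BRCA1del against 5.71, 7.33 and 7.50% in BRCA1flox. With siBLM and siBRCA1 neither zone overlapped. Each of the 3 zone differences had its direction with 4 of 4 siRNAs and passed without each of the 4 runs in turn. Without run C, however, the near zone had that direction with 3 of 4 siRNAs, siLuciferase being the exception. Within runs the near and the middle zone had it in 7 of 8 pairs each and the far zone in 8 of 8. Within the joins left of the array, the share within 49 bp was 46.5% ± 9.4 in BRCA1del (SD, n = 12 libraries) and 19.6% ± 7.5 in BRCA1flox (SD, n = 9 libraries), with no overlap with any siRNA. The near zone and the farther zones thus differed in opposite directions. The region as a whole held 15.9% of leftward joins for BRCA1del against 20.5% for BRCA1flox (difference -4.64 points, adjusted p = 0.0144, exact permutation). That difference did not pass without run B (-4.54 points), without run C (-3.40 points) or within runs (-4.16 points, exact sign-flip p = 0.117 over 8 pairs). The length of cassette DNA aligned per read had a median of 124 bp in BRCA1del and 127 bp in BRCA1flox libraries on average.

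**Figure D3:**
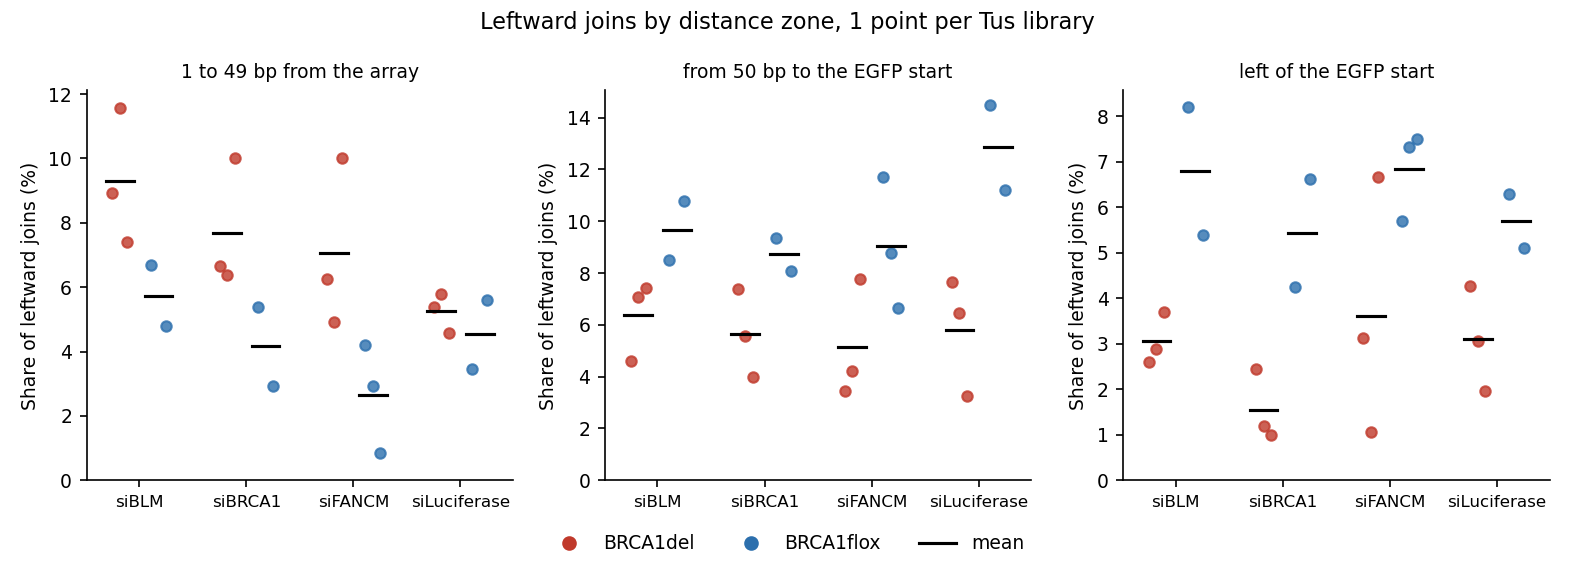
Share of leftward joins (%) in 3 zones of distance, with 1 point per Tus library and a black bar at the mean of each group, for the 4 siRNAs in BRCA1del and BRCA1flox. The BRCA1del means lie above the BRCA1flox means from 1 to 49 bp and below them in both other zones.

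Join structure was not alike in the genotypes either: BRCA1del had more blunt joins and fewer with microhomology. Blunt joins made up 24.6, 17.8 and 26.7% of the siLuciferase libraries of BRCA1del and 5.84 and 9.30% of those of BRCA1flox. With siBRCA1 the values were 19.1, 18.2 and 26.7% against 8.96 and 0%, the last resting on 24 joins, and with siFANCM 22.0, 24.1 and 13.6% against 8.33, 13.5 and 5.56%. With siBLM they were 25, 20.9 and 13.3% against 16.9 and 8.57%, and only with siBLM did the genotypes overlap. Averaged over siRNAs, blunt joins made up 21% in BRCA1del and 8.47% in BRCA1flox (difference 12.5 points, adjusted p = 0.0007, exact permutation). Within runs the BRCA1del library was higher in 8 of 8 pairs.

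Microhomology of at least 2 bp was found in 44.3, 46.7 and 40% of joins in the siLuciferase libraries of BRCA1del and in 57.8 and 62.8% of those of BRCA1flox. With siBRCA1 it was 36.2, 18.2 and 20% against 58.2 and 62.5%, the widest gap of the 4 siRNAs. With siFANCM it was 39.0, 34.5 and 54.5% against 62.5, 53.8 and 50%. With siBLM it was 35.7, 31.3 and 66.7% against 46.8 and 68.6%, and the BRCA1del value of 66.7% again rested on 15 joins. The genotypes overlapped with siFANCM and siBLM and were apart with the other siRNAs. Averaged over siRNAs the shares were 38.9% and 58.4% (difference -19.5 points, adjusted p = 0.0048, exact permutation). Without run C the difference was -20.5 points, larger in size, but did not pass.

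The blunt and microhomology differences were also counted within the zones, again after the values had been seen. From 50 bp to the EGFP start blunt joins made up 19.8% in BRCA1del and 6.21% in BRCA1flox, and microhomology 40.8% and 58.4%. Both differences passed (adjusted p = 0.0225 and 0.0254, exact permutation, over 3 zones). From 1 to 49 bp microhomology was found in 36.1% and 60.6% (adjusted p = 0.0278, exact permutation), whereas blunt joins, at 22.9% and 14.7%, did not pass (adjusted p = 0.207, exact permutation). Left of the EGFP start blunt joins made up 21.9% and 7.87%, and microhomology 44.2% and 60.1%. Neither difference passed there (adjusted p = 0.231 and 0.175, exact permutation). Their directions held with 2 and 3 of 4 siRNAs, and BRCA1del libraries had only 1 to 15 joins in that zone. Microhomology thus passed in both zones nearer the array and blunt joins in the middle zone alone. With so few far joins, the blunt difference was not shown to be confined to the middle zone. Distances still differ within a zone, so the zones do not match the genotypes on distance. Among joins without an insertion, microhomology was found in 48.1% in BRCA1del and 73.0% in BRCA1flox.

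**Figure D4:**
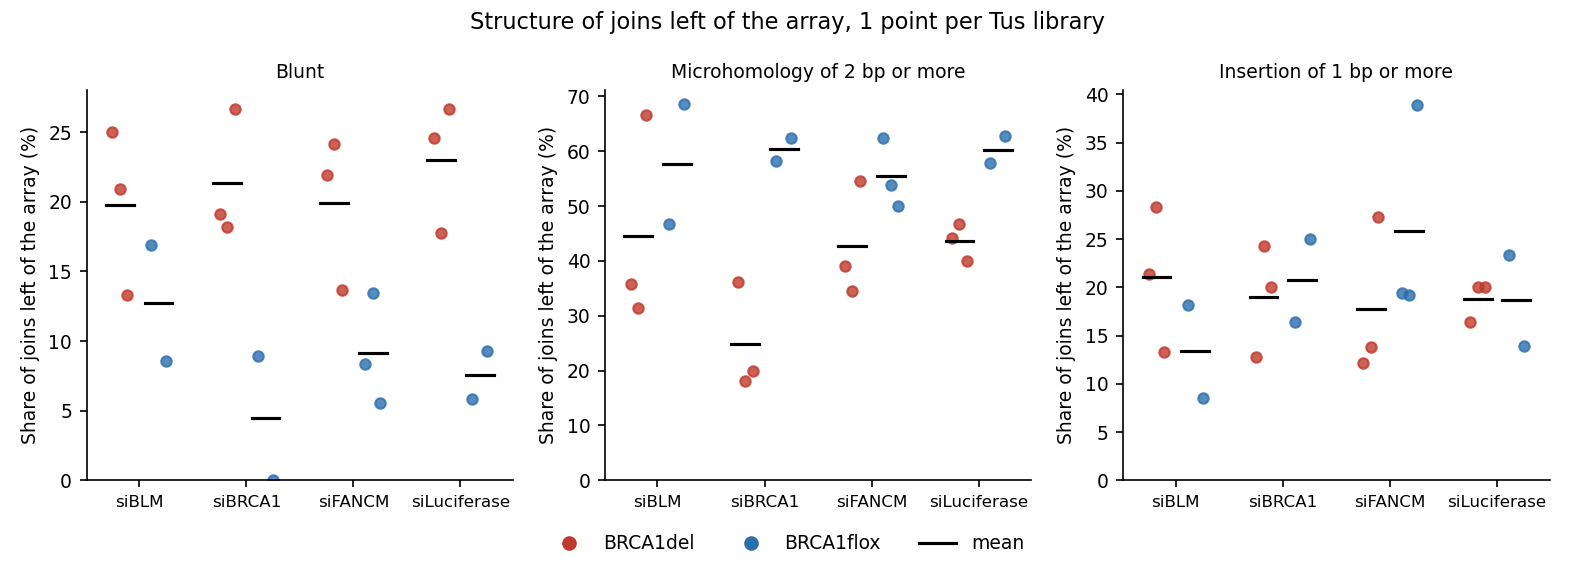
Share of joins left of the array (%) that were blunt, had microhomology of at least 2 bp or had an insertion, with 1 point per Tus library and a black bar at the group mean. BRCA1del points lie mostly higher in the blunt panel and lower in the microhomology panel, and the insertion panel shows no common order.

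The lengths of microhomology did not all differ alike between the genotypes. Pooled over libraries, 95 of 446 BRCA1del joins shared no base and 95 shared 1 base, against 49 and 74 of 542 BRCA1flox joins. The counts were 85 and 128 for 2 bp, 47 and 95 for 3 bp, and 37 and 89 for 4 bp or more, with BRCA1del first. Averaged over libraries, 1 shared base was more frequent in BRCA1del with siBRCA1 (34.9 against 14.5%) and siFANCM (19.7 against 9.58%). It was nearly level with siLuciferase (14.5 against 13.5%) and less frequent in BRCA1del with siBLM (14.6 against 16.2%). As a share of each library, 2 bp made up 19.8% ± 9.9 in BRCA1del and 22.7% ± 4.9 in BRCA1flox (SD, n = 12 and 9 libraries), and with siBLM it was higher in BRCA1del in both shared runs. By the same measure, 3 bp made up 9.61% ± 4.71 in BRCA1del and 18.7% ± 4.1 in BRCA1flox, and 4 bp or more 9.54% ± 5.90 and 16.7% ± 4.1 (SD, n = 12 and 9 libraries). With siLuciferase, 4 bp or more was nearly level, at 16.0% in BRCA1del and 17.7% in BRCA1flox, and lower in BRCA1del in 1 of 2 shared runs. The longest microhomology was 7 bp.

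**Figure D5:**
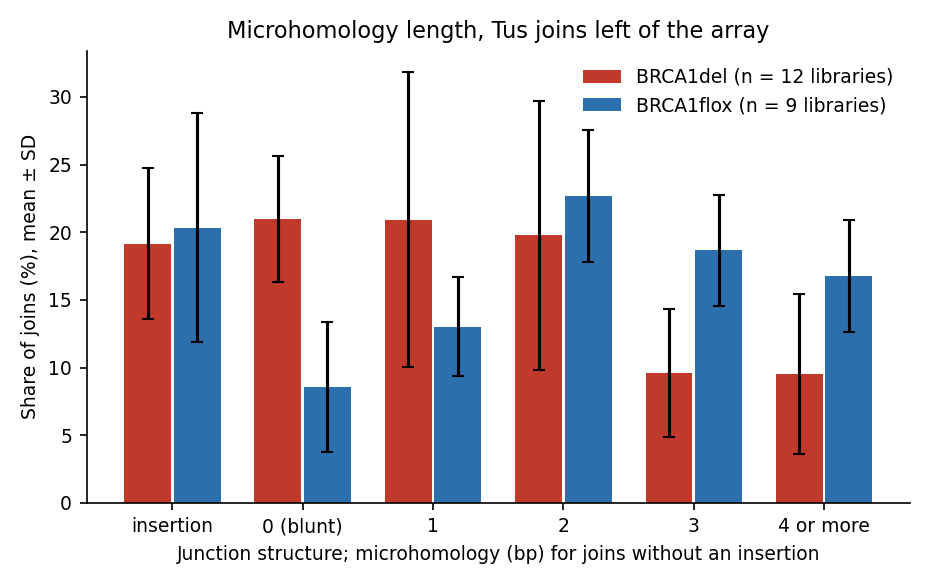
Share of Tus joins left of the array (%, mean ± SD over 12 BRCA1del and 9 BRCA1flox libraries) with an insertion or with microhomology of each length (bp). BRCA1del bars are higher for 0 bp and 1 bp and lower from 2 bp on, and the error bars overlap at 1 bp, at 2 bp, at 4 bp or more and for insertions.

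Some sequences recurred among the 126 Tus joins with microhomology of at least 4 bp. GGCA joined 14 times in 7 libraries, in 2 of the 37 such joins of BRCA1del and 12 of the 89 of BRCA1flox. It was used at 5 positions, of which 2676 was the most used with 4 joins. AACTT joined 12 times, 8 of them at position 2979 in 8 different libraries, where the bait had lost 3 bases. CTTG and CAGG each joined 8 times, and ACTTG joined 6 times, 5 of them at position 2894. CTTGC and GGCAG each joined 5 times and were seen only in BRCA1flox, counts too small to compare. I-SceI libraries held 6 joins with microhomology of at least 4 bp, and 4 of these used the same bases at the same positions, AACTT at 2979, ACTTG at 2894, CTTG at 2941 and GGCA at 2676.

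Insertions did not differ detectably with genotype. An insertion of at least 1 bp was found in 19.1% of joins in BRCA1del and 19.7% in BRCA1flox, averaged over siRNAs (adjusted p = 0.873, exact permutation). Of the 194 insertions with Tus, 49 were a single base and the median was 5 bp. The 48 insertions of at least 12 bp were searched as a whole in the bait and the cassette: 6 were found in the bait, 6 in the cassette and 36 in neither. Among the 36 was a call of 56 bp at position 2343, in the stretch that could not be rebuilt. Cassette bases that could not be matched were counted in it, so its length is overstated. The longest, 230 bp, belonged to the farthest join, at position 42, in BRCA1del with siLuciferase.

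Loss at the bait end was short. Across Tus joins the median loss at the bait end was 10 bp, with quartiles of 3 and 19 bp. The whole bait end as rebuilt was used by 109 joins (11.0%). Per library the median loss was 8.83 bp ± 3.86 in BRCA1del (n = 12 libraries) and 10.8 bp ± 1.9 in BRCA1flox (n = 9 libraries), a difference that did not pass (adjusted p = 0.255, exact permutation). Leftward joins within the array were the closest comparison from the same 21 Tus libraries. There the median bait loss averaged 12.1 bp, against 9.69 bp left of the array, and it was smaller left of the array in 17 of 21 libraries (difference -2.45 bp, adjusted p = 0.0036, permutation of signs over libraries, Benjamini-Hochberg over 4 measures). It did not pass without run C (-1.38 bp) or with each position counted once (-1.69 bp). Blunt joins (15.7 against 15.4%), microhomology (47.1 against 45.4%) and insertions (19.7 against 16.8%) did not pass between the regions. Nor did any of these 4 measures pass between joins left and right of the EGFP start, compared within the 8 Tus groups, where microhomology was 52.2 and 46.5%.

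None of the 21 comparisons of an siRNA with siLuciferase passed, each averaged over both genotypes. The smallest exact permutation p that the libraries allowed was 0.0167 or more with siBLM and siBRCA1 and 0.005 or more with siFANCM. After adjustment over 21 comparisons, 1 measure alone could not pass at these values. The lack of a call therefore does not show that the siRNAs had no effect. The smallest unadjusted p was for microhomology with siBRCA1, which averaged 42.6% against 52.0% with siLuciferase (difference -9.40 points, p = 0.0833, exact permutation, adjusted p = 0.963). This gap lay in BRCA1del, with 24.8% against 43.6%, whereas BRCA1flox was level, with 60.4% against 60.3%. With siBLM and siFANCM the region held 20.5 and 17.2% of leftward joins, against 18.6% with siLuciferase. Median distances averaged 161 bp with siBLM, 106 bp with siBRCA1, 187 bp with siFANCM and 157 bp with siLuciferase. Medians of the BRCA1del siBRCA1 libraries ranged from 28 to 97 bp. With the run as a replicate block, the median distance with siBRCA1 was shorter than with siLuciferase in 5 of 5 pairs (difference -47.5 bp, exact sign-flip p = 0.0625, the smallest that 32 sign splits allow, adjusted p = 1 over 21 comparisons).

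Tus and I-SceI were compared in BRCA1del cells with siFANCM, and none of the 7 measures passed. Tus libraries in runs A, C and D held 41, 29 and 22 such joins, or 12.8, 10.2 and 24.4% of leftward joins. I-SceI libraries in runs A and C held 11 and 27, or 4.72 and 10.4%. The averages were 15.8 and 7.55% (exact permutation p = 0.3, where the smallest possible was 0.1). In run A the share was higher with Tus and in run C it was higher with I-SceI. With each position counted once, the difference of Tus minus I-SceI turned to -1.11 points. The I-SceI medians of 162 and 262 bp lay above the 3 Tus medians of 58, 52 and 148.5 bp (exact permutation p = 0.2). Within 49 bp lay 1.29 and 0.385% of leftward I-SceI joins, against 6.25, 4.91 and 10% with Tus. All 38 I-SceI joins lay at different positions, from 12 to 2520 bp from the array, and the 3 nearest were at 3013, 3011 and 3009. Microhomology was found in 45.5 and 48.1% of I-SceI joins and blunt joins made up 18.2 and 22.2%, both within the range of the Tus libraries. With EV there was 1 join in each library, at 288 and 2918 bp, both blunt.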

How the data were processed

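LAM-HTGTS junctions were mapped in 25 samples of 10 groups. The authors deposited 1 table per group that pools its samples, with 1 row per junction that gives its position, strand, alignment ends and read. A value there is a coordinate or a read, and no count. The aligner Bowtie2 and the build mm9 come from the submitters' processing notes. How junctions were filtered and duplicates removed is not given in the sources used here. Libraries were taken as the sequencing run in the read names, since the tables carry no replicate number. Coordinates are 1-based positions of the cassette, as in the deposited tables, not of a genome build. From inside the array rightward these positions ran 1 base ahead of the reads, while positions left of the array did not, and the structure was called from the reads' letters. Runs C and D of a group carried the same inline barcode in 8 of 8 Tus groups but shared 4 of 1221 molecules, against 3 on average with run C of other groups.

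The cassette and the bait were rebuilt by majority vote of the reads in 5 passes. Junction structure was called from exact seeds of 10 bases (bait) and 12 bases (cassette), and it was called for 11863 of 11867 junctions and for all 1028 joins described. Overlaps of up to 20 bases counted as microhomology. In 972 of the 1028 joins, with or without microhomology, the deposited position was the first cassette base matched in the read. The calls and the permutation test were tested on simulated data. Reads were not independent molecules by any identifier, but 1 join at most repeated another of its library in position, far end and bait end.

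The genotypes were compared within siRNA (20000 exact splits of libraries) and siRNAs within genotype. Tus and I-SceI were compared over libraries, and regions within libraries or groups by permuting signs (exact, or 100000 resamples for 21 libraries). P-values were adjusted by Benjamini-Hochberg within each comparison, and adjusted p below 0.05 passed. Alternatives were the counting of positions or molecules, runs left out, runs as blocks, pooling, other borders, splits and length minimums. Named positions were the 5 found in most Tus libraries and the 3 nearest the array with I-SceI. Joins, lists and measures were chosen with earlier results of these data known. Python 3.11.15, numpy 2.4.6, pandas 2.3.3 and matplotlib 3.10.9 were used.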

Additional observations from a re-analysis of the deposited data

Results flagged for a closer look

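The difference between BRCA1del and BRCA1flox went opposite ways with different siRNAs in every run that both genotypes shared, for 3 pairs of siRNAs. The share of joins with an insertion was higher in BRCA1del by 7.66 points with siBLM and lower by -8.10 points with siFANCM, so that the differences were 15.8 points apart (p = 0.205, exact permutation of siRNA labels within genotype). The median bait-end loss was 1.17 bp longer in BRCA1del with siBRCA1. It differed by -4.50 bp with siFANCM, 5.67 bp apart (p = 0.115, exact permutation), and by -5.33 bp with siLuciferase, 6.50 bp apart (p = 0.0833, exact permutation). Each siRNA had 2 shared runs. Over the 42 such tests, 7 measures by 6 pairs of siRNAs, 0 had an unadjusted exact permutation p below 0.05, and the smallest adjusted p was 0.7.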

How the results depend on the processing

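Of 436 alternative values, 370 kept both direction and side of the threshold. The 370 include comparisons of Tus with I-SceI, which had too few libraries to pass under any alternative (smallest possible exact permutation p 0.1). They also include comparisons of siRNAs with siLuciferase, where 1 measure alone could not pass after adjustment over 21 comparisons. For both, an unchanged call says little about robustness. The 54 that turned in sign belonged to differences that had not passed and did not pass then. The genotype difference in blunt joins passed under all 10 of its alternatives, and the zone differences, set after the data had been seen, under all 21. Run D libraries held 15 to 43 of these joins, and leaving them out lost no genotype call. With 2 libraries in 3 of the BRCA1flox groups a design without run C has 1 library there. The tables carry no replicate number to pair samples by, and the sequencing run served as the replicate block. The alternatives of joins at least 2 bp from the array, a split at 49 bp and microhomology among joins without an insertion were also chosen after seeing the data, and changed no call. Causes of the changes below were not tested. Values are differences, in percentage points or bp, first group minus second.

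With the run as replicate block, the genotype difference in the share of leftward joins lost its call (-4.16), and differences turned for genotype in insertions (0.422), siBLM in the share left of the EGFP start (-0.707), siFANCM in bait loss (0.375) and Tus against I-SceI in blunt joins (2.84). Blocked by run, no other call changed.

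With each position counted once, the bait loss left of against within the array lost its call (-1.69), and differences turned for siBLM in the share of leftward joins (-0.865), blunt joins (-0.253) and microhomology (0.105), siBRCA1 in insertions (-0.744), Tus against I-SceI in the share of leftward joins (-1.11) and microhomology left of against within the array (-2.16). With joins pooled per group, they turned for siBLM in median distance (-37.5), the share left of the EGFP start (-0.167) and bait loss (-0.50), for siBRCA1 in insertions (-1.46) and for siFANCM in median distance (-11), blunt joins (0.799) and insertions (-0.683).

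With joins at least 50 bp from the array, the genotype difference in median distance lost its call (-56.2) and insertions left of against within the array gained one (4.81). Differences turned for genotype in insertions (0.455), siBLM in the share of leftward joins (-0.791), siBRCA1 in blunt joins (3.25) and insertions (-0.634), Tus against I-SceI in median distance (37), microhomology (1.64) and insertions (3.26), and blunt joins left of against within the array (-0.796). For siBLM, the mean log10 distance (-0.12) and the share beyond 100 bp (-5.18) turned. With microhomology from 1 bp, differences turned for siBLM (0.58), siBRCA1 (1.26), Tus against I-SceI (2.74) and left of against within the array (-3.11), and from 3 bp the last passed (4.72). With insertions from 5 bp, siBRCA1 turned (-0.122) and left of against within the array passed (3.79).

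Leaving out each run in turn gave ranges of -6.37 to -3.40 for genotype in the share of leftward joins, -155 to -120 in median distance, -16.0 to -11.9 in the share left of the EGFP start, -20.5 to -19.0 in microhomology and -1.25 to 0.192 in insertions. The call was lost without run C for all of these but insertions, which had none, and without run B for the share of leftward joins. For siBLM they were -55.2 to 34 in median distance, -0.90 to 1.25 in the share left of the EGFP start, -3.60 to 6.4 in blunt joins, -11.5 to 7.42 in microhomology, -3.10 to 0.751 in insertions and -0.75 to 2.5 in bait loss. For siBRCA1 they were -6.94 to 1.36 in the share left of the EGFP start, -6.01 to 0.296 in blunt joins and -3.33 to 4.62 in insertions. For siFANCM they were -4.37 to 0.717 in the share of leftward joins, -35 to 71.2 in median distance, -5.10 to 3.46 in blunt joins, -4.62 to 8.38 in insertions and -1 to 0.25 in bait loss. For Tus against I-SceI they were -14.5 to 7.65 in the share left of the EGFP start, -3.34 to 2.84 in blunt joins, -10.0 to 1.33 in microhomology and -7.21 to 1.55 in insertions. Left of against within the array they were -0.186 to 5.12 in insertions and -3.31 to -1.38 in bait loss, whose call was lost without run C, and left against right of the EGFP start -3.12 to 2.73 in blunt joins.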
